A study of Mus musculus with 11 samples.

Results

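A set of 10 genes that mark the formative and primed stages of mouse pluripotency were followed across RNA-seq libraries of mouse embryonic stem cells in which CTCF was depleted or replaced. They were taken by symbol: the FGF ligands Fgf15 and Fgf5, the POU factor Pou3f1, the SOX factor Sox3, the chromatin-bound factor Utf1, the homeobox factor Otx2, the zinc finger factors Zic2, Zic5 and Sall2, and the forkhead factor Foxd3. All 10 stood in the tables of 55228 gene symbols, and all 10 were among the 16420 genes with enough counts to be tested. The cells were the line EN52.9.1, in which endogenous CTCF carries an auxin-inducible degron, grown in serum with leukaemia inhibitory factor. EV cells without auxin (genotype label untreated, wild type; EV untreated) gave 3 libraries. EV cells with 500 µM of the auxin indole-3-acetic acid, whose genotype label gives depletion of the endogenous CTCF, gave 2 (EV auxin). Cells with 500 µM auxin and reintroduced FL CTCF gave 3 (FL auxin). Cells with 500 µM auxin and reintroduced CTCF carrying the H373R substitution, titled ZF4, also gave 3 (H373R auxin). All 11 libraries share the degron line, and the 3 auxin groups share the drug, so an effect of auxin itself and of CTCF loss cannot be told apart against EV untreated cells. The number of clones behind each group, the time in auxin and whether replicates were separate cultures are not given in the sources used here, so p-values measure only the spread between these libraries.

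Mouse embryonic stem cells in serum and leukaemia inhibitory factor sit near the naive state, and pass through a formative stage before they become primed, epiblast-like cells. FGF signalling through ERK drives that passage, Otx2 redirects the shared factor Oct4 to new enhancers, and Fgf5 is the classic transcript of the epiblast after implantation. Several of the genes serve again in the neural plate, where Sox3, Pou3f1, Zic2, Zic5 and Otx2 are expressed. The series title names CTCF as a G-quadruplex binding protein, and the groups allow 3 questions to be put to each gene: what depletion changed, what each reintroduced protein changed from there, and whether the H373R and FL cells differed.

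The libraries held 13465241 to 29902246 counts. Core pluripotency transcripts (Pou5f1, Sox2, Sall4, Lin28a, Tdgf1, Zfp281 and Dppa4) summed to 4723 to 5064 TPM (a level scaled by transcript length and library) in every library, so all groups expressed stem cell genes at a like total. Ctcf RNA, which the degron does not act on, was 325 ± 27.5 CPM (counts scaled by library size) in EV untreated cells (SD, n = 3), 361 ± 3.63 in EV auxin cells (n = 2), 337 ± 11.3 in FL cells (n = 3) and 321 ± 13.0 in H373R cells (n = 3). It therefore does not check the depletion. EV untreated replicate 1 stood apart from its replicates: its deviation from the group mean correlated with transcript GC content across 16244 genes (r = 0.56, genes not being independent). Its counts differed from the other 2 EV untreated libraries by a chi-square of 15.6 and 14.9 per degree of freedom, against 1.93 to 4.77 for all other replicate pairs. Among the genes of the set, Sox3, Foxd3, Pou3f1 and Utf1 lay at the 99.7, 99.5, 99.2 and 99.0 percentile of transcript GC content and Zic2 at 95.2, so values for these against EV untreated cells are also given without that library. FL replicate 1 deviated with GC content in the same direction, less strongly (r = 0.32). Its deviations correlated with those of EV untreated replicate 1 (r = 0.28). FL comparisons of these genes can thus carry a GC trend too, and calls lost without FL replicate 1 are named below.

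On the TPM scale the 10 genes spanned a wide range. Utf1 was by far the most abundant, with means of 987 ± 211 TPM in EV untreated, 981 ± 47.8 in EV auxin, 1296 ± 139 in FL and 1106 ± 28.2 in H373R cells (SD, n = 3, 2, 3 and 3). In EV untreated cells it was followed by Zic2 at 56.0 ± 1.54, Zic5 at 33.4 ± 3.38, Otx2 at 32.1 ± 2.81 and Fgf15 at 29.4 ± 0.491 TPM (n = 3). The ranges of Zic5, Otx2 and Fgf15 overlapped there, so these 3 could not be ordered. Next came Foxd3 at 11.5 ± 2.76, Pou3f1 at 10.5 ± 1.92 and Sall2 at 10.2 ± 0.533 TPM (n = 3), again with overlapping ranges, then Sox3 at 6.11 ± 2.37 TPM. Fgf5 stayed under 1 TPM in every library. The order changed in both FL and H373R cells, where Fgf15 stood above Zic2. In FL cells Fgf15 reached 60.4 ± 2.68 TPM and Zic2 38.3 ± 1.68 TPM (n = 3). In H373R cells Fgf15 reached 68.7 ± 0.903 TPM and Zic2 41.2 ± 1.16 TPM (n = 3).

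**Figure D1:**
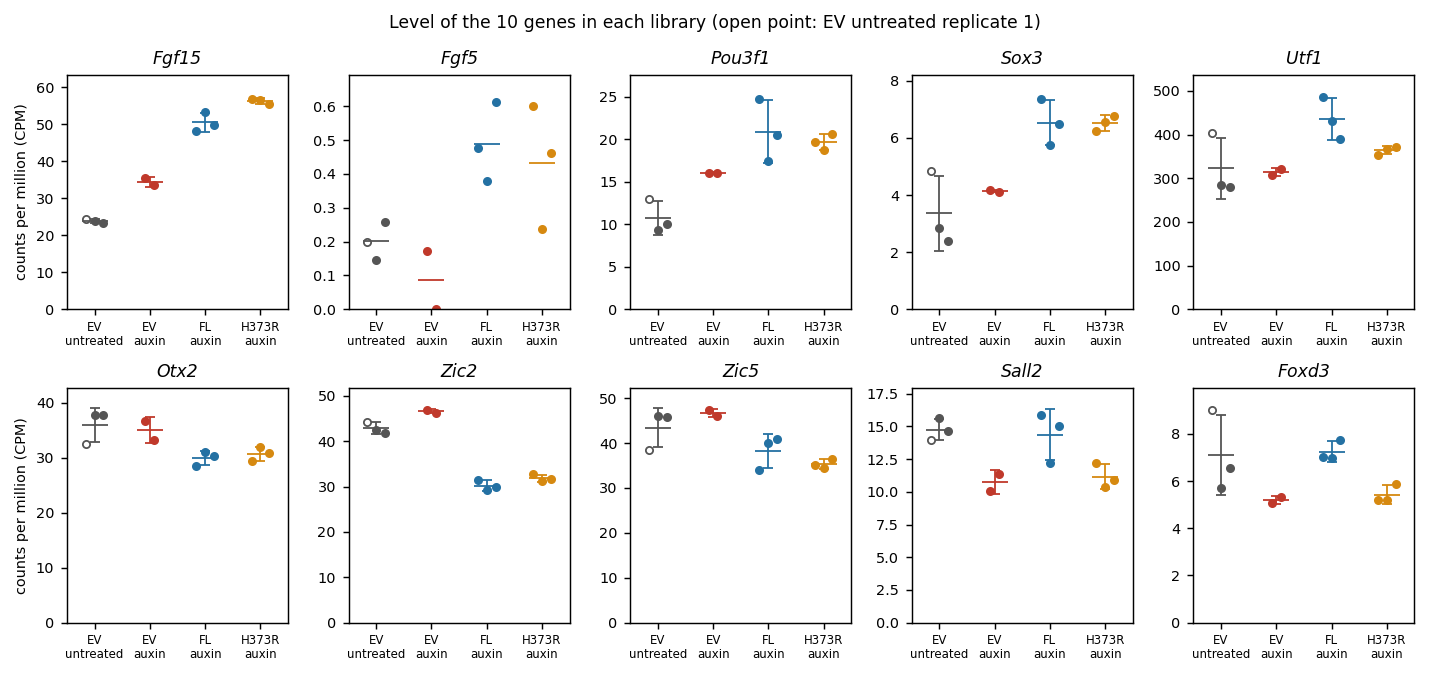
CPM (counts scaled by library size, linear axis from 0, a scale of its own for each gene) of the 10 genes in the 4 groups. Points are libraries, the horizontal mark is the group mean and the bar its SD (none for Fgf5, which has few counts); the open point is EV untreated replicate 1. Fgf15 climbs over the 4 groups from 23.5 to 57.0 CPM, Zic2 is lower in the FL and H373R libraries, and Sall2 and Foxd3 are lower in EV auxin and H373R than in FL libraries.

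After depletion (EV auxin against EV untreated), Fgf15 and Pou3f1 rose and Sall2 fell, so 3 of the 10 genes were called. A call here and below means a Benjamini-Hochberg adjusted p under 0.05 in the edgeR quasi-likelihood fit, adjusted over all 16420 tested genes. Of all tested genes 20.7% were called in this comparison, 11.3% higher and 9.4% lower. The libraries of the groups did not overlap for 5 of the 10 genes, beside 44.9% of all genes. In FL cells against EV auxin cells, Fgf15, Fgf5, Sox3, Utf1 and Sall2 rose and Zic2 and Zic5 fell, 7 of 10 genes, beside 24.5% of all genes (11.1% higher and 13.4% lower). There the groups did not overlap for any of the 10 genes, 7 being higher and 3 lower in FL cells, beside 53.9% of all genes. In H373R cells against EV auxin cells, Fgf15, Fgf5 and Sox3 rose and Zic2 and Zic5 fell, 5 of 10 genes, beside 21.7% of all genes (10% higher and 11.7% lower), and 8 of 10 did not overlap, beside 57% of all genes.

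H373R and FL cells differed by the test in 1 of the 10 genes, Sall2, which was lower in H373R cells, beside 5.96% of all genes (3.14% higher and 2.82% lower). The libraries did not overlap for 4 genes, Fgf15 being higher and Foxd3, Utf1 and Sall2 lower in H373R cells, beside 28.8% of all genes. Against EV untreated cells, FL cells had 4 of the genes higher and 2 lower, beside 36.9% of all genes (17.7% higher and 19.2% lower), and 6 did not overlap, beside 43.4% of all genes. H373R cells had 3 higher and 5 lower than EV untreated cells, beside 44.4% of all genes (22.3% higher and 22.1% lower), and 7 did not overlap, beside 51% of all genes. These comparisons share libraries and are not independent of one another. The median log2 fold change of the 10 genes was 0.034 after depletion (0.0087 over all tested genes), 0.45 in FL against EV auxin (-0.014 over all) and 0.14 in H373R against EV auxin (0.00031 over all). Over all 6 comparisons the 10 genes gave 30 calls, of which 15 held in every other fit and with any 1 library left out. The shares of all genes called in each comparison are given above. How many calls of all genes held in this way was not counted, so the 15 cannot be set beside such a share. All 15 also passed an adjusted p under 0.01, but a minimum log2 change of 1 would keep 4 of the 30, and 2 of the 15, both of Fgf15 against EV untreated cells. The calls of Fgf15 and Zic2 in the comparisons with EV auxin were among the 15; for the other genes the libraries that decide a call are named below. With the doubted EV untreated replicate 1 left out, which also narrows the estimated spread for comparisons it is no part of, the counts called were 4 after depletion, 10 for FL and 8 for H373R against EV auxin, and 4 for H373R against FL. The shares of all genes called were higher as well, at 33.3%, 35.5%, 33% and 14.2%.

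**Figure D2:**
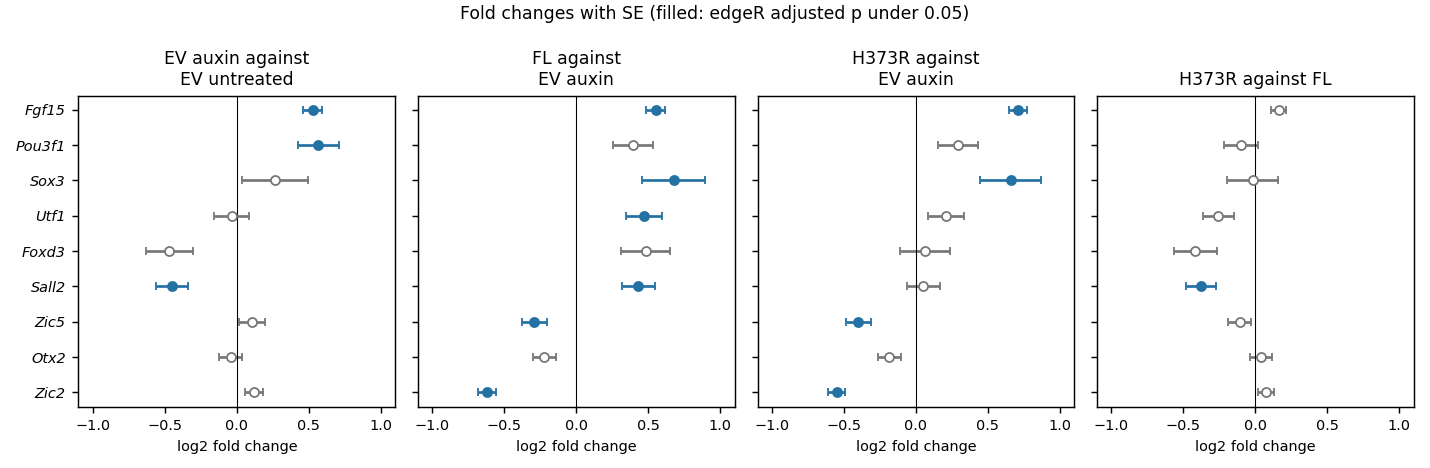
Log2 fold changes (x axis) with their standard errors for 9 of the genes in 4 comparisons; filled points passed an adjusted p under 0.05 in edgeR. Fgf5 is left out because its fold change rests on 3 reads in EV auxin cells. Fgf15 lies to the right in the first 3 panels, Zic2 and Zic5 to the left in the FL and H373R panels, and Sall2 is the filled point of the H373R against FL panel.

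Fgf15, the mouse counterpart of the hormone FGF19, is an FGF ligand of the early embryo and of the gut. It gave 24.4, 23.8 and 23.5 CPM in the EV untreated libraries, 35.5 and 33.5 in EV auxin, 48.3, 53.5 and 49.8 in FL, and 57.0, 56.6 and 55.5 in H373R. The 4 groups formed 4 separate ranges, lowest in untreated and highest in H373R cells. It was 1.44-fold higher in EV auxin than in EV untreated cells (log2 0.53 ± 0.065 SE, edgeR adjusted p = 2.97e-05), and higher again in the cells with either reintroduced protein than in EV auxin cells, in FL by 0.55 ± 0.064 (adjusted p = 2.97e-05) and in H373R by 0.71 ± 0.063 (adjusted p = 9.09e-06) on the log2 scale. The FL and H373R levels were thus farther from the untreated level than that of EV auxin cells, at 2.11-fold (FL) and 2.36-fold (H373R) above it. H373R exceeded FL by 0.16 on the log2 scale (95% interval 0.044 to 0.28), which missed the threshold in edgeR (adjusted p = 0.101); it was called by limma on TPM (log2 0.18, adjusted p = 0.0372) and by edgeR without EV untreated replicate 1 (log2 0.15, adjusted p = 0.0382).

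Fgf15 lies on chromosome 7 (chr7:144896531-144900953, plus strand, GRCm38) in a cluster with Fgf4 and Fgf3, whose genes also encode FGF ligands. Fgf4, the main FGF of embryonic stem cells and its nearest tested neighbour on one side, lies 31.3 kb away. Fgf4 gave 209, 228 and 227 CPM in EV untreated, 149.7 and 148.6 in EV auxin, 206, 214 and 209 in FL, and 183, 184 and 181 in H373R libraries. EV auxin was lowest without overlap, and H373R lay between EV auxin and FL. It fell 1.48-fold after depletion (log2 -0.57 ± 0.051, edgeR adjusted p = 1.19e-06), rose in FL (0.49 ± 0.051) and less in H373R cells (0.29 ± 0.051) over EV auxin, and was lower in H373R than in FL cells (-0.20 ± 0.045, adjusted p = 0.0149). The neighbouring ligand genes thus moved in opposite directions after depletion. Fgf3, at 5.19 to 9.26 CPM over all libraries, rose in FL cells (log2 0.53) and H373R cells (0.41) over EV auxin and was not called after depletion (0.16 ± 0.13). Bc1, a noncoding RNA gene 13.5 kb on the other side of Fgf15, rose in FL cells over EV auxin (log2 0.86, adjusted p = 0.00651) and was not called after depletion (-0.025). The antisense gene Gm26793 overlaps Fgf15 but had at most 19 counts in any library; whether the counting used strand is not given in the sources used here.

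**Figure D3:**
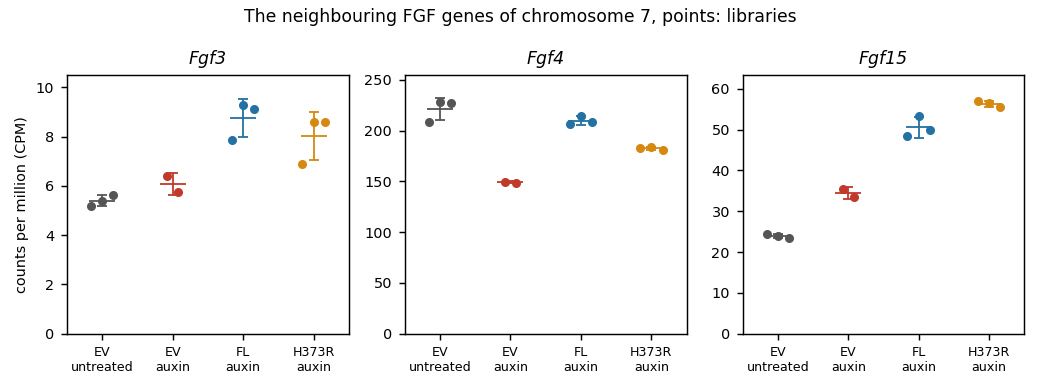
CPM (linear axes from 0) of the 3 FGF genes of the chromosome 7 cluster by group; points are libraries, the mark is the mean and the bar its SD. Fgf4 drops from 221 to 149 CPM with depletion while Fgf15 climbs from 23.9 to 34.5 CPM, and Fgf4 is lower but Fgf15 higher in H373R than in FL libraries.

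Fgf5 (chr5:98254184-98277030, plus strand), which promotes exit from naive pluripotency and marks the post-implantation epiblast, was close to the detection limit. It had 6, 3 and 7 counts in the EV untreated libraries, 3 and 0 in EV auxin, 10, 5 and 12 in FL, and 14, 5 and 12 in H373R. Pooled over libraries this was 0.206 CPM in untreated, 0.0721 in EV auxin, 0.502 in FL and 0.440 in H373R cells. All FL and H373R libraries exceeded both EV auxin libraries in CPM. The ratio of pooled counts was 6.97 for FL over EV auxin (exact 95% interval 2.15 to 35.9) and 6.11 for H373R over EV auxin (1.90 to 31.2), intervals that cover counting error only. Both passed in edgeR (adjusted p = 0.0154 and 0.0236), but the calls were lost without EV auxin replicate 2, the library with no read (adjusted p = 0.204 and 0.281). FL replicate 3 (FL comparison) and H373R replicates 1 and 3 (H373R comparison) each also carried the call. After depletion the ratio was 0.350 (0.0654 to 1.22), so a change was not detectable at this depth. Over EV untreated cells the ratio was 2.44 (1.27 to 4.85) for FL and 2.14 (1.13 to 4.18) for H373R, neither past the edgeR threshold (adjusted p = 0.0557 and 0.0793).

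The receptors for these ligands were a list of 6, of which 5 were tested. Fgfr4, the receptor that FGF15 uses together with the co-receptor klotho beta (Klb), rose after depletion from 5.88 to 7.55 CPM (log2 0.36 ± 0.12, edgeR adjusted p = 0.0415), the 1 call of this list. Klb was at 1.35 and 1.27 CPM in EV untreated and EV auxin cells and rose to 5.99 CPM in FL cells (log2 2.26 ± 0.16 over EV auxin, adjusted p = 2.36e-07) and 3.33 CPM in H373R cells (1.41 ± 0.17, adjusted p = 8.45e-05). H373R cells held less Klb than FL cells (-0.85 ± 0.11, adjusted p = 2.68e-04). Fgfr4 was instead highest in H373R cells, at 11.1 CPM (0.55 ± 0.11 over EV auxin, adjusted p = 0.00314), and Fgfr2 lowest there, at 6.31 CPM (-0.36 ± 0.097, adjusted p = 0.0157). Fgfr1, the most abundant receptor of the list at 127 CPM in EV untreated cells, was not called after depletion (-0.029) or in either reintroduction over EV auxin. Fgfr3 was not called after depletion either (-0.15).

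Pou3f1 (Oct6; chr4:124656807-124660655, plus strand), a POU factor of the epiblast and of early neural cells, gave 13.0, 9.30 and 9.99 CPM in EV untreated, 16.1 in both EV auxin, 24.8, 17.4 and 20.6 in FL, and 19.7, 18.7 and 20.6 in H373R libraries. All auxin-treated libraries lay above all untreated ones, and FL and H373R ranges overlapped. It rose 1.48-fold after depletion (log2 0.56 ± 0.14, edgeR adjusted p = 0.0104; 0.72 without EV untreated replicate 1), a call that leaving out either EV auxin library ended (highest adjusted p 0.0976). Relative to EV untreated cells it was 1.94-fold higher in FL (log2 0.96 ± 0.13, adjusted p = 3.76e-05) and 1.81-fold higher in H373R cells (0.86 ± 0.12, adjusted p = 5.40e-05). Without EV untreated replicate 1 these became 1.13 and 1.02, and with the trend against GC content and length removed 0.73 and 0.55, all called. The further step from EV auxin to FL was 0.39 ± 0.14 (adjusted p = 0.0516) and was called without EV untreated replicate 1 or 2 or FL replicate 2 (lowest adjusted p 0.00209). The step from EV auxin to H373R was 0.29 (adjusted p = 0.145), and 0.30 (adjusted p = 0.0209) without EV untreated replicate 1. With the trend against GC content and length removed the FL step was 0.29 (adjusted p = 0.00437) and the H373R step 0.10 (adjusted p = 0.308). The antisense gene Gm2164 overlaps Pou3f1 and had at most 14 counts in any library.

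Sox3 (chrX:60891366-60893430, minus strand), an X-linked SOXB1 factor of epiblast and neural progenitors, gave 4.86, 2.84 and 2.39 CPM in EV untreated, 4.16 and 4.11 in EV auxin, 7.35, 5.77 and 6.48 in FL, and 6.24, 6.56 and 6.77 in H373R libraries. FL and H373R libraries were all above the other 5. Over EV auxin it rose 1.60-fold in FL cells (log2 0.68 ± 0.22, edgeR adjusted p = 0.0346) and 1.58-fold in H373R cells (0.66 ± 0.21, adjusted p = 0.0372). These 2 calls sat near the threshold and were lost without either EV auxin library, FL replicate 1 (FL comparison only) or 3, or any H373R library (H373R comparison), with adjusted p up to 0.177 and 0.196, and were not made by limma on TPM (0.0903 and 0.0884). Over EV untreated cells the increases of 0.94 (FL, adjusted p = 0.00138) and 0.93 (H373R, adjusted p = 8.45e-04) were called in every other fit and with any 1 library left out, and became 1.36 and 1.33 without EV untreated replicate 1. After depletion the value was 0.27 ± 0.23 (adjusted p = 0.456), and 0.66 ± 0.17 (adjusted p = 0.00347) without EV untreated replicate 1. With the trend against GC content and length removed the depletion value was 0.18 ± 0.15 (adjusted p = 0.399). The increases over EV untreated cells then became 0.68 in FL and 0.58 in H373R cells, both called. FL and H373R cells differed by -0.018 (95% interval -0.40 to 0.36). Its relative Sox1, which marks neuroectoderm, rose from 9.16 CPM in EV auxin to 22.8 in FL (log2 1.32 ± 0.090) and 16.1 in H373R cells (0.82 ± 0.091), with the H373R level below FL (-0.50 ± 0.073, adjusted p = 7.40e-04). Sox1 was named after its values were seen, and of the 6 neuroectoderm markers tested in FL over EV auxin it alone rose while 3 fell, Pax6 (-0.99), Nes (-0.45) and Tubb3 (-0.33).

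Utf1 (chr7:139943789-139945112, plus strand), a chromatin-bound factor of pluripotent cells, gave 403, 284 and 281 CPM in EV untreated, 308 and 321 in EV auxin, 486, 431 and 389 in FL, and 354, 366 and 372.5 in H373R libraries. The FL libraries exceeded all others but EV untreated replicate 1, and the H373R libraries lay between EV auxin and FL without overlap. Utf1 rose 1.38-fold in FL over EV auxin (log2 0.47 ± 0.12, edgeR adjusted p = 0.0127), a call lost without either EV auxin library or FL replicate 1 (highest adjusted p 0.104). Limma on TPM did not make that call (log2 0.40, adjusted p = 0.0651). The H373R level was 0.21 ± 0.12 above EV auxin (edgeR adjusted p = 0.246) and 0.26 ± 0.11 below FL (log2 -0.26, 95% interval -0.49 to -0.025, adjusted p = 0.194). Without EV untreated replicate 1 the difference between H373R and FL was -0.27 (adjusted p = 0.00124) and that between H373R and EV auxin 0.21 (adjusted p = 0.00793). With the trend against GC content and length removed these were -0.36 (adjusted p = 9.88e-05) and 0.00050 (adjusted p = 0.996). Against EV untreated cells FL was higher by 0.43 ± 0.11 (adjusted p = 0.00608) although the libraries overlapped, and by 0.63 without EV untreated replicate 1. With the trend removed FL was higher by 0.22 (adjusted p = 0.00182). The sign for H373R against EV untreated cells depended on the GC trend: 0.17 as fitted (adjusted p = 0.212), -0.14 with the trend removed (adjusted p = 0.0364) and 0.36 without EV untreated replicate 1 (adjusted p = 2.25e-05). After depletion it was -0.036 as fitted, 0.14 without that library (adjusted p = 0.0995) and -0.14 with the trend removed (adjusted p = 0.0871).

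Zic2 and Zic5 encode zinc finger factors of the primed enhancer programme and of the neural plate. They lie head to head on chromosome 14 (Zic5 chr14:122456795-122465677, minus strand; Zic2 chr14:122475435-122479852, plus strand). Zic2 gave 44.3, 42.4 and 41.9 CPM in EV untreated, 46.9 and 46.3 in EV auxin, 31.5, 29.2 and 29.9 in FL, and 32.7, 31.2 and 31.6 in H373R libraries. The FL and H373R libraries overlapped each other and lay below all EV libraries. Zic2 fell 1.54-fold in FL (log2 -0.62 ± 0.062, edgeR adjusted p = 7.62e-06) and 1.46-fold in H373R cells (-0.55 ± 0.061, adjusted p = 5.48e-05) from EV auxin, and it ended below EV untreated cells too (-0.50 and -0.43). These 4 calls held in every other fit, with any 1 library left out and at an adjusted p under 0.01, but are below a log2 change of 1. Without EV untreated replicate 1 the values against EV untreated cells were -0.48 in FL and -0.41 in H373R cells, and 0.13 after depletion (adjusted p = 0.0936). After depletion the value was 0.12 ± 0.060 (adjusted p = 0.181), and H373R and FL differed by 0.072 (95% interval -0.050 to 0.19).

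Zic5 gave 38.5, 46.0 and 45.8 CPM in EV untreated, 47.3 and 46.0 in EV auxin, 33.9, 39.9 and 40.8 in FL, and 35.1, 34.4 and 36.5 in H373R libraries. The EV auxin libraries exceeded all FL and H373R libraries, and EV untreated replicate 1 fell within the FL range. The gene fell in FL (log2 -0.29 ± 0.090, edgeR adjusted p = 0.0276) and in H373R cells (-0.40 ± 0.088, adjusted p = 0.00494) from EV auxin. The FL call was lost without either EV auxin library or FL replicate 1 (highest adjusted p 0.147), and the H373R call without EV auxin replicate 1 (adjusted p = 0.0554). Against EV untreated cells H373R was lower (-0.29 ± 0.079, adjusted p = 0.00673), and FL was called only without EV untreated replicate 1 (-0.27, adjusted p = 0.00135, against -0.19 with it). Between the genes lies 2610035F20Rik, a noncoding transcript 0.236 kb from Zic2 at 0.598 CPM in EV untreated and 0.576 in EV auxin cells. It fell with them, to 0.217 CPM in FL (log2 -1.47 ± 0.41, adjusted p = 0.0180) and 0.257 CPM in H373R cells (-1.16 ± 0.37, adjusted p = 0.0427).

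The nearest protein-coding genes on either side of the Zic pair are given for comparison. Pcca, which encodes a subunit of propionyl-CoA carboxylase and lies 54.5 kb beyond Zic2, gave 32.3, 31.6 and 33.9 CPM in EV untreated and 22.6 and 22.6 in EV auxin libraries, and fell after depletion (log2 -0.53 ± 0.067, edgeR adjusted p = 4.01e-05). It rose again in FL (0.24) and H373R cells (0.28). Clybl, a mitochondrial citramalyl-CoA lyase gene 54.6 kb beyond Zic5, gave 30.3, 29.3 and 31.8 CPM in FL and 39.8, 40.5 and 42.8 in H373R libraries. It fell in FL cells from EV auxin (log2 -0.24 ± 0.066, adjusted p = 0.0150) and from EV untreated cells (-0.36 ± 0.059, adjusted p = 2.31e-04), but was 0.18 ± 0.064 above EV auxin in H373R cells (adjusted p = 0.0525). Every H373R library was higher than any FL library (log2 0.43 ± 0.059, adjusted p = 4.18e-04), while Zic5 was not called in that comparison (-0.11, 95% interval -0.28 to 0.065).

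Otx2 (chr14:48657677-48673819, minus strand), the homeobox factor that drives formative enhancers, gave 32.5, 37.8 and 37.8 CPM in EV untreated, 36.7 and 33.3 in EV auxin, 28.5, 31.1 and 30.3 in FL, and 29.3, 31.9 and 31.0 in H373R libraries. All FL and H373R libraries were below all EV libraries, by a small margin. Compared with EV untreated cells, Otx2 fell in FL (log2 -0.26 ± 0.073, edgeR adjusted p = 0.0104) and H373R cells (-0.23 ± 0.071, adjusted p = 0.0176). The FL call was lost without FL replicate 1 (adjusted p = 0.0531), and the H373R call without EV untreated replicate 2 or 3 or H373R replicate 1 (highest adjusted p 0.0783). Against EV auxin the values were -0.22 (adjusted p = 0.0618) and -0.18 (adjusted p = 0.118), called without EV untreated replicate 1 (0.0153 and 0.0324). After depletion it differed by -0.041 ± 0.080 (adjusted p = 0.771). Its relative Otx1, at 0.573 CPM in EV untreated cells, rose after depletion to 1.496 CPM (log2 1.36 ± 0.34, adjusted p = 0.00932) and to 2.18 CPM in H373R cells. Tmem260, the nearest tested gene on the lower side of Otx2 at 133 kb, fell from 5.45 to 2.98 CPM after depletion (log2 -0.85 ± 0.13, adjusted p = 2.89e-04).

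Sall2 and Foxd3 had another order of mean levels, with EV auxin and H373R cells below EV untreated and FL cells. Sall2 (chr14:52311172-52328762, minus strand), a zinc finger factor of the spalt family, gave 13.98, 15.6 and 14.7 CPM in EV untreated, 10.1 and 11.4 in EV auxin, 15.9, 12.2 and 15.0 in FL, and 12.2, 10.4 and 10.9 in H373R libraries. EV auxin and H373R libraries overlapped each other, and both lay below the EV untreated and FL libraries, although the lowest FL and the highest H373R library were close. It fell 1.36-fold after depletion (log2 -0.45 ± 0.11, edgeR adjusted p = 0.01002), rose 1.35-fold in FL over EV auxin (0.43 ± 0.12, adjusted p = 0.0139) and was 1.30-fold lower in H373R than in FL cells (-0.38 ± 0.10, adjusted p = 0.0386). H373R differed from EV auxin by 0.052 ± 0.12 (adjusted p = 0.794). The call between H373R and FL was lost without any 1 of EV auxin replicate 1, FL replicates 1 and 3 and H373R replicates 2 and 3 (highest adjusted p 0.149), and in limma on TPM (log2 -0.30, adjusted p = 0.143). The depletion call was lost without EV auxin replicate 1 (adjusted p = 0.116), and the FL call without that library or FL replicate 1 (highest adjusted p 0.129). Limma on TPM did not make the call of FL over EV auxin either (log2 0.31, adjusted p = 0.0779). Against EV untreated cells, the lower level in H373R cells (-0.40 ± 0.097, edgeR adjusted p = 0.00383) was called in every other fit and with any 1 library left out. Its relative Sall1 fell after depletion too (log2 -0.24, adjusted p = 0.00165) but was lower still in FL (-0.36) and H373R cells (-0.40) than in EV auxin cells.

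Foxd3 (chr4:99656299-99658622, plus strand), a forkhead factor at the exit from naive pluripotency and in neural crest, gave 9.02, 5.73 and 6.57 CPM in EV untreated, 5.08 and 5.31 in EV auxin, 7.01, 6.99 and 7.75 in FL, and 5.21, 5.19 and 5.89 in H373R libraries. FL libraries exceeded all EV auxin and H373R libraries, and EV untreated libraries spread over both ranges. The differences were -0.47 ± 0.16 after depletion (edgeR adjusted p = 0.0542), 0.48 ± 0.17 for FL over EV auxin (adjusted p = 0.0516) and -0.42 ± 0.15 for H373R against FL (log2, 95% interval -0.73 to -0.10, adjusted p = 0.116), none past the threshold. The depletion value was called without EV untreated replicate 2 or 3 (lowest adjusted p 0.0124) and the FL value without EV untreated replicate 2. Without EV untreated replicate 1 the last 2 were called (0.49, adjusted p = 0.00239, and -0.43, adjusted p = 0.00721) and the depletion value was -0.26 (adjusted p = 0.119). With the GC trend removed all 3 were called, at -0.58 (adjusted p = 5.26e-04), 0.33 (adjusted p = 0.0355) and -0.50 (adjusted p = 0.00250). H373R cells were below EV untreated cells by 0.41 ± 0.14 (log2 -0.41, adjusted p = 0.0280), a call lost without EV untreated replicate 1 (log2 -0.20, adjusted p = 0.148) or H373R replicate 1 or 2. Limma on TPM did not make that call (log2 -0.34, adjusted p = 0.0639). FL against EV untreated was 0.011 as fitted (adjusted p = 0.961), 0.23 without EV untreated replicate 1 (adjusted p = 0.0971) and -0.25 with the GC trend removed (adjusted p = 0.0403). The nearest tested protein-coding genes were not called after depletion: Mettl3, an RNA methyltransferase gene 6.04 kb from Sall2, differed by 0.00059 ± 0.066 (adjusted p = 0.997), and Alg6, a glycosylation enzyme gene 57.0 kb from Foxd3, by 0.12 ± 0.12 (adjusted p = 0.559).

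Because the series asks about G-quadruplexes, the promoters of the genes were searched for the sequence that can form them, 4 runs of at least 3 G with 1 to 7 bases between runs, on both strands. The bases between runs could be any letter, G included, so a long run could count as more than 1. RefSeq promoter windows of 300 bases (250 before the start and 50 after it, GRCm38.p6) were held for 6 of the 10 genes, with 10 windows in all, since Otx2 has 4 starts and Sall2 has 2. The pattern stood in 5 of these 10 windows, in 5 genes, and in 18.6% of all 32851 promoter windows of the same length. These shares were not matched for G and C content, and some Otx2 windows overlap each other, so an excess was not tested. The windows of Fgf5, Foxd3 and Zic5, 1 of the Otx2 windows and 1 of the Sall2 windows held it, and the window of Utf1 did not. A fixed string written after the core of the CTCF motif stood on either strand in 0 of the 10 windows and in 2.43% of all windows. At so low a share, 10 windows are too few for its absence to tell anything. The bases before the start are shown for 4 genes whose window held the G pattern, cut at the first annotated exon of the gene, 5′ to 3′ on the gene's strand, with the match in capitals. Sall2 (chr14:52316324-52316573, minus strand) and Foxd3 (chr4:99656049-99656298, plus strand) come first. Zic5 (chr14:122465678-122465908, minus strand) and Fgf5 (chr5:98253934-98254183, plus strand) follow.
Sall2: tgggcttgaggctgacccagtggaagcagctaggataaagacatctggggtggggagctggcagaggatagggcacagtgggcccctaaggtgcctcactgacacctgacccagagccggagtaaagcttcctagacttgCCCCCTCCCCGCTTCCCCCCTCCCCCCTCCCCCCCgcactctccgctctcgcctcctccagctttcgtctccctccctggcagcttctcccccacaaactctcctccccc
Foxd3: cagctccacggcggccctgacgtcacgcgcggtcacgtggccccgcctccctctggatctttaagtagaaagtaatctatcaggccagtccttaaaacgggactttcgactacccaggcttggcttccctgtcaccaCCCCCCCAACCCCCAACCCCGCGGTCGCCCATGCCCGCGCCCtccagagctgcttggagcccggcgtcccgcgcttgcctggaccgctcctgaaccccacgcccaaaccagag
Zic5: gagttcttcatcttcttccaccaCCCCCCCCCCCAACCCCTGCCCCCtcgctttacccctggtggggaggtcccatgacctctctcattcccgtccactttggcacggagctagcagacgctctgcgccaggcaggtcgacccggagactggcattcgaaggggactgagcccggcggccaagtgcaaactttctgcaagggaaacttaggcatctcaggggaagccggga
Fgf5: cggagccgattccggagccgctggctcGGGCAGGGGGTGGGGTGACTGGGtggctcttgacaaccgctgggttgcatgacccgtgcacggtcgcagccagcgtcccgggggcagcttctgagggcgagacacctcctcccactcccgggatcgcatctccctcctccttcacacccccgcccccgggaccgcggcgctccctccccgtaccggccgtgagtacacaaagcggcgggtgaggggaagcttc
In Sall2, Foxd3 and Zic5 the runs are of C as printed, so the G runs lie on the strand opposite to the gene, and in Fgf5 they lie on the gene's own strand. The Zic5 match reaches 4 runs only by splitting its longest run. These 250, 250, 231 and 250 bases hold 64.4%, 65.6%, 62.3% and 70.8% G and C. A match is a property of the letters only, and no binding was measured in these libraries.

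Other formative and primed genes were a list of 17, all tested. After depletion 7 of them were called, 4 higher and 3 lower, with a median of 0.084. Sfrp2, a secreted modulator of Wnt signalling, rose from 35.3 to 68.3 CPM (log2 0.95 ± 0.069, edgeR adjusted p = 1.20e-07) and Dnmt3b, a de novo DNA methyltransferase, from 169 to 217 CPM (0.36 ± 0.046, adjusted p = 4.98e-05). Etv5, an ETS factor downstream of FGF signalling, fell from 330 to 259 CPM (-0.35 ± 0.044, adjusted p = 4.40e-05). In FL over EV auxin 9 of the 17 rose and 2 fell (median 0.25), in H373R over EV auxin 5 rose and 4 fell (median 0.069), and in H373R against FL 4 fell and none rose (median -0.18). Of all tested genes 20.7% were called after depletion, and 24.5%, 21.7% and 5.96% in these comparisons, in that order.

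Of 15 naive pluripotency genes, 8 fell and 2 rose after depletion (median -0.29), among them Fgf4 above and Nr0b1, an orphan nuclear receptor gene of naive cells, which fell from 65.0 to 40.0 CPM (log2 -0.70 ± 0.084, edgeR adjusted p = 2.43e-05). Dppa3, a germ cell and naive marker, rose from 15.2 to 31.4 CPM (1.05 ± 0.075, adjusted p = 9.27e-08), and the Krüppel-like factor gene Klf4 rose from 341 to 436 CPM (0.35 ± 0.046, adjusted p = 5.32e-05). Against EV untreated cells, 3 rose and 7 fell in FL and 2 rose and 10 fell in H373R cells, with medians of -0.14 and -0.17. The summed naive level was 5338 to 5411 TPM in EV untreated, 5117 to 5176 in EV auxin, 4487 to 4559 in FL and 4510 to 4578 in H373R libraries, while the other formative list summed to 1371 to 1506, 1427 to 1526, 1607 to 1769 and 1561 to 1591 TPM in the same order. The naive sum was thus lowest and the formative sum highest in the cells with reintroduced CTCF. The most abundant naive genes were Nanog (1160 TPM in EV auxin, 872 in FL and 964 in H373R cells) and Zfp42 (1474, 1141 and 1030 TPM). Both were called lower than in EV auxin in FL and H373R cells, and were named after their values were seen. Their falls were large beside the drop of the naive sum from EV auxin, so the sum does not stand for the list as a whole. By number of genes, 6 naive genes rose and 3 fell in FL over EV auxin (median 0.10), and 5 rose and 3 fell in H373R (median 0.12). Of all tested genes 24.5% and 21.7% were called over EV auxin in FL and H373R cells. The shares were 20.7% after depletion, and 36.9% and 44.4% in FL and H373R against EV untreated cells. Of 7 core genes, 1 was called after depletion, Sox2 (-0.20 ± 0.047, adjusted p = 0.00538).

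**Figure D4:**
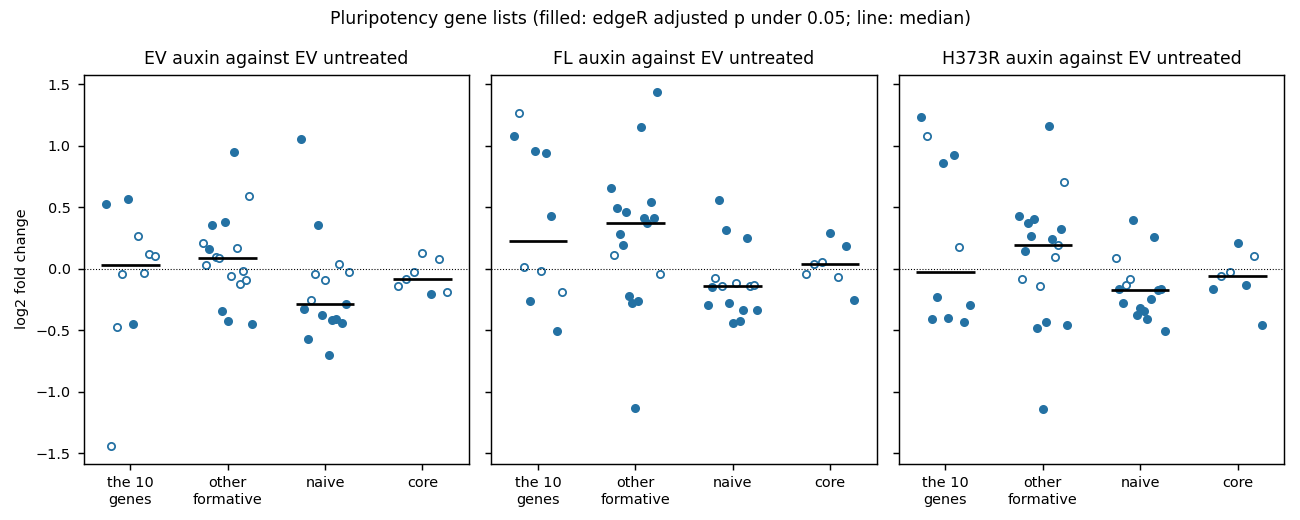
Log2 fold changes against EV untreated cells (y axis) for the 10 genes, 17 other formative or primed genes, 15 naive genes and 7 core genes in the 3 auxin groups. Each point is a gene, filled where the edgeR adjusted p was under 0.05, and the line is the list median, which for the naive list lies below 0 in all 3 panels (-0.29, -0.14 and -0.17).

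Markers of other cell types were read beside these results. In bulk RNA, fewer cells of a type and less RNA per cell cannot be told apart. All 7 primitive endoderm markers rose in FL and in H373R cells over EV auxin, beside 11.1% and 10% of all genes. Of these markers 4 of 7 were lower in H373R than in FL cells, beside 2.82% of all genes. Their summed level was 18.7 to 19.9 TPM in EV untreated, 22.1 to 22.7 in EV auxin, 63.5 to 68.6 in FL and 40.9 to 45.6 in H373R libraries. Dab2, an endocytic adaptor, was the most abundant of them, at 5.30 to 25.3 TPM. The sum was thus highest in FL cells, as was Klb, whereas Fgf15 was highest in H373R cells. Of 9 neuroectoderm markers 6 were tested. Over EV auxin 1 was higher and 3 lower in FL and 1 higher and 2 lower in H373R cells, beside 24.5% and 21.7% of all genes. The sum was 376 to 444 TPM in EV untreated, 419 to 433 in EV auxin, 308 to 355 in FL and 358 to 368 in H373R libraries, most of it the neuronal tubulin Tubb3, and Neurog1 and Neurog2 stayed under 1 TPM in every library. After depletion Nes, an intermediate filament gene of progenitors, rose (0.59 ± 0.078) and the neuronal gene Map2 fell (-0.61 ± 0.12). The mesendoderm sum was 13.9 to 24.4 TPM over all libraries, the trophoblast sum 163 to 202 TPM, of which Tfap2c made 82.8 to 127 TPM, and the fibroblast sum 65.0 to 91.5 TPM, with Dcn and Lum at or near 0. The part of any of these cell types in the results above was not tested.

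For the 3 genes with the smallest adjusted p after depletion, the tested genes with the most similar profile over the 11 libraries were sought among the 11451 whose average log2 CPM reached 2; the libraries share groups, depth and composition, so the r values describe only. For Fgf15 they included Tedc2 (Pearson r = 0.992) and Selenon, a selenoprotein gene (0.9901). For Pou3f1 they were Mogs, a glycoprotein-trimming glucosidase gene (0.991), Hes6, a bHLH factor gene (0.988), and Ino80e, a chromatin remodeller subunit gene (0.986). For Sall2 they were Rsad1 (0.932), Ntn1, the gene of the guidance cue netrin-1 (0.912), and Col18a1, a basement membrane collagen gene (0.906). Rsad1 fell by 1.58 on the log2 scale after depletion (edgeR adjusted p = 2.15e-06).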

How the data were processed

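RNA-seq counts per gene and TPM values were used as deposited in 2 tables of 55228 symbols. Per the submitters' processing notes, featureCounts (Subread 2.0.3), DESeq2 and the build mm10/GRCm38 were used; the aligner and the strand setting of counting are not given in the sources used here. The deposited TPM are the authors' own values, scaled by library and transcript length. Libraries were grouped by their labels; 1 more replicate of the EV auxin group is not analysed here. Counts were fitted with edgeR 4.0.16 (R 4.3.3; TMM scaling, filterByExpr, quasi-likelihood test, 4 group means over 11 libraries), and 6 comparisons were adjusted by Benjamini-Hochberg over 16420 genes at 0.05. CPM use TMM library sizes; SE is the fold change over the root of F; the intervals for Fgf5 cover counting error only. The fit was tested on simulated data. Positions and neighbours are from GENCODE (GRCm38), promoters from RefSeq GRCm38.p6.

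The 10 genes and all lists were chosen with earlier results of these data known. Named were the 10 genes, up to 4 genes of each other list with the smallest adjusted p after depletion, the most abundant markers, the nearest tested neighbours, and for the 3 genes with the smallest adjusted p the 3 most similar profiles; Fgf3, Fgfr2, Nanog, Otx1, Pax6, Sox1 and Zfp42 were named after their values were seen. The alternatives were a stricter p, a fold minimum, RLE and upper quartile scaling, DESeq2 1.42.0, other count filters, only the libraries compared, a replicate block, limma 3.58.1 on log2 TPM, removal of GC and length trends, and leaving out each library. Some results that these rules would name are not reported here.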

Additional observations from a re-analysis of the deposited data

How the results depend on the processing

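The number of the 10 genes called depended on the strictness of the rule and on single libraries, as did the share of all genes called. An adjusted p under 0.01 left 1 after depletion (3 in edgeR at 0.05), 2 for FL over EV auxin (of 7), 3 for H373R over EV auxin (of 5) and 0 for H373R against FL (of 1), beside 11.8%, 13.2%, 11.2% and 2.66% of all genes. A fold change of at least 1 (log2) left 0, 1, 1, 0, 1 and 1 in the 6 comparisons, the last 2 being FL and H373R against EV untreated (6 and 8 as fitted), beside 3.41%, 2.41%, 0.865%, 0.475%, 4.04% and 5.12% of all genes. The limma fits on TPM called 4 for FL over EV auxin (pseudocount 1 or 0.1; 21.6% and 21.4% of all genes) and 3 for H373R over EV auxin (with either pseudocount or no TPM filter; 16.8%, 16.4% and 7.66%), and 1 after depletion with no TPM filter (7.93%). Fitting only the libraries compared called 8 for H373R over EV auxin (36.7% of all genes) and 3 for H373R against FL (11.7%). No count filter (4.25%), or removal of the GC and length trends (13.8%), called 3 for H373R against FL. With each library left out in turn the counts ran from 1 to 4, 3 to 10, 3 to 8, 0 to 4, 5 to 7 and 6 to 8. The lowest came without EV auxin replicate 1 (all of the first 4), EV auxin replicate 2 or FL replicate 1 (FL over EV auxin), EV auxin replicate 2 or H373R replicate 1 or 3 (H373R over EV auxin), FL replicate 1 or 3 or H373R replicate 2 or 3 (H373R against FL), FL replicate 1 (FL against EV untreated) and H373R replicate 1 (H373R against EV untreated), and the highest of the first 5 without EV untreated replicate 1, among others. With single libraries left out, the shares of all genes called ran from 9.32% to 33.3%, 11.2% to 35.5% and 8.85% to 33% in the first 3 comparisons. In the last 3 they ran from 3.12% to 14.2%, 28.9% to 47.2% and 36.8% to 54.7%. With the replicate block the counts were 3, 8, 5, 0, 8 and 9 (19.5%, 24.2%, 21.5%, 5.74%, 37.4% and 45.3% of all genes), with Sall2 between H373R and FL at an adjusted p of 0.0506 in edgeR. The deviations of same-numbered libraries correlated with r from -0.087 to 0.28 over 15 pairs, 3 of them over 0.1. Differently numbered libraries of different groups gave -0.20 to 0.13 over 30 pairs, 1 of them over 0.1. The labels name no pairs, so the numbers were not taken as pairs, and a batch shared by number was not excluded.

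Of 1295 single-gene alternatives in fit or libraries (the stricter p and the fold minimum leave the value as it is), 1146 kept direction and side of the threshold, 60 gained a call, 63 lost one and 26 changed sign. All sign changes were of values not called as fitted. After depletion, leaving out 1 library moved Otx2 from -0.13 to 0.017 (positive without EV auxin replicate 2) and Utf1 from -0.13 to 0.14 (0.14 without EV untreated replicate 1); Utf1 was 0.010 and 0.011 in limma with pseudocounts 1 and 0.1 and 0.010 without TPM filter, and Zic2 was -0.014 with GC and length trends removed. For H373R over EV auxin, Sall2 ran from -0.024 (without EV auxin replicate 1) to 0.15, with -0.012 without H373R replicate 1, and Foxd3 was -0.17 with trends removed. For H373R against FL, Fgf5 ran from -0.49 to 0.075 (positive without FL replicate 3 or H373R replicate 2), Pou3f1 from -0.20 to 0.043 (positive without FL replicate 1) and Sox3 from -0.085 to 0.081 (positive without FL replicate 1 or H373R replicate 1). In the same comparison Sox3 was 0.030, 0.032 and 0.030 in the 3 limma fits and Zic2 -0.032 with trends removed. For FL against EV untreated, Sall2 ran from -0.096 to 0.072 (positive without EV untreated replicate 2 or FL replicate 2) and was 0.014 with trends removed. Foxd3 ran from -0.10 to 0.23 there (negative without EV untreated replicate 2 or 3 or FL replicate 3) and was -0.25 with trends removed. For H373R against EV untreated, Utf1 was -0.14 with trends removed. The cause was not tested. Fgf5 had too few counts to be tested under the stricter count filter or the TPM filter.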

Other observations

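Of 19 close relatives of the 10 genes, 12 were tested. After depletion 2 of them rose and 4 fell, in FL over EV auxin 6 rose and 1 fell, in H373R over EV auxin 4 rose and 1 fell, and in H373R against FL none rose and 3 fell. Of all tested genes 20.7%, 24.5%, 21.7% and 5.96% were called in these comparisons, in that order. Foxd1, a forkhead relative of Foxd3 chosen here after its values were seen, rose after depletion from 0.590 to 1.21 CPM (log2 1.01 ± 0.33, edgeR adjusted p = 0.0382), while Foxd3 had a lower mean. Fgf8, an FGF ligand of the embryonic midline, also chosen after its values were seen, stayed under 1 CPM on average and was at 0.272 CPM in EV auxin and 0.772 CPM in H373R cells (log2 1.42 ± 0.40, adjusted p = 0.0195).

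Among the other formative genes, Dnmt3a, which encodes a de novo DNA methyltransferase and was chosen after its values were seen, was at 233 CPM in EV auxin, 294 CPM in FL and 230 CPM in H373R cells. It rose in FL over EV auxin (log2 0.33 ± 0.046, edgeR adjusted p = 1.25e-04), differed by -0.019 in H373R cells, and was lower in H373R than in FL cells (-0.35 ± 0.041, adjusted p = 9.01e-05). Lef1, a Wnt-responsive factor gene, fell after depletion from 13.7 to 10.2 CPM (-0.43 ± 0.099, adjusted p = 0.00601) and fell further in FL (6.30 CPM) and H373R cells (6.21 CPM). The differences among these genes' courses were not tested.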
